A study of Saccharomyces cerevisiae with 6 samples.

Results

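The genes described here encode subunits of the chromatin remodelers of budding yeast, Saccharomyces cerevisiae. They are 43 named genes of SWI/SNF, RSC, INO80 and SWR1 and the ATPases ISW1, ISW2 and CHD1, and were chosen by name and grouped by complex. Of the 43, 42 had a probe set annotated to that gene and no other, out of 5449 genes with such a probe set, and each of the 42 had 1 probe set. RSC30 was not analysed here. All 42 passed the filter on dim signals, which 5349 of the 5449 genes passed.

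Chromatin remodelers use the energy of ATP to slide, evict or exchange nucleosomes, the units in which DNA is wrapped around histones. SWI/SNF was found through mutants that could not switch mating type or use sucrose, and opens promoters of inducible genes. RSC is a related, more abundant and essential complex that keeps promoters free of nucleosomes. INO80 also acts on nucleosomes, and SWR1 inserts the histone variant Htz1 into them, while the ISW and CHD1 enzymes space nucleosomes in regular arrays.

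Total RNA was measured on 6 Affymetrix arrays, 3 of untreated cells (Control_untreated) and 3 of cells given zymolyase (Zym), a preparation of glucan-degrading enzymes that breaks down the cell wall. Both groups were the laboratory strain labelled BY4743, a MATa/α diploid with the alleles his3Δ1, leu2Δ0, met15Δ0, ura3Δ0 and lys2Δ0, grown for 2 days at 25 °C in YPD, a rich medium. The treated cells received 30 U/ml of zymolyase for 10 min at 37 °C. The labels do not say how warm control cells were kept meanwhile, so enzyme and warming cannot be told apart for any gene below. Separate cultures are not stated for the 3 samples of a group, and the p-values measure the spread between samples that may be technical repeats.

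The values are MAS5 signals, intensities on a linear scale that were scaled to a common trimmed mean on each array. A rise or fall of all messages together would therefore be hidden, and fewer cells with a transcript cannot be told from less of it in each cell. Correlations of log2 signal between arrays were 0.985 to 0.987 within a group and 0.938 to 0.947 across groups. The strain check went against part of the label. URA3 and LEU2, listed as deleted, had signals of 1802 ± 66.8 and 671 ± 38.5 (SD, n = 3) in the control, and HO, which is repressed in a/α diploids, 1214 ± 65.2. The α pheromone gene MF(ALPHA)1 was far above background on all arrays, as was STE3 of α cells, whereas STE2 and MFA1 of a cells gave control signals of 48.4 ± 11.1 and 32.8 ± 6.94. Background is the 99th percentile of probe sets for a second species, which was between 21.0 and 31.4 per array.

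Of the 42 remodeler genes, 20 were higher and 11 lower with zymolyase at an adjusted p under 0.05 (limma, Benjamini-Hochberg over all 5394 probe sets tested), and 11 did not pass. Over all probe sets 71.5% were called, 32.6% higher and 38.9% lower. The called share of the remodeler genes, 73.8%, was therefore near that of all probe sets. Their median log2 fold change was 0.12, against -0.08 over all probe sets. On 33 of the 42 genes the arrays of both groups did not overlap, compared with 73.3% of all probe sets. Changes of at least 2-fold were found for 4 genes, which is 9.52% of the members, against 10.3% of all probe sets. These 4 were SNF2, RSC2 and CHD1, which rose, as did 8.06% of all probe sets by at least 2-fold, and HTL1, which fell.

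**Figure D1:**
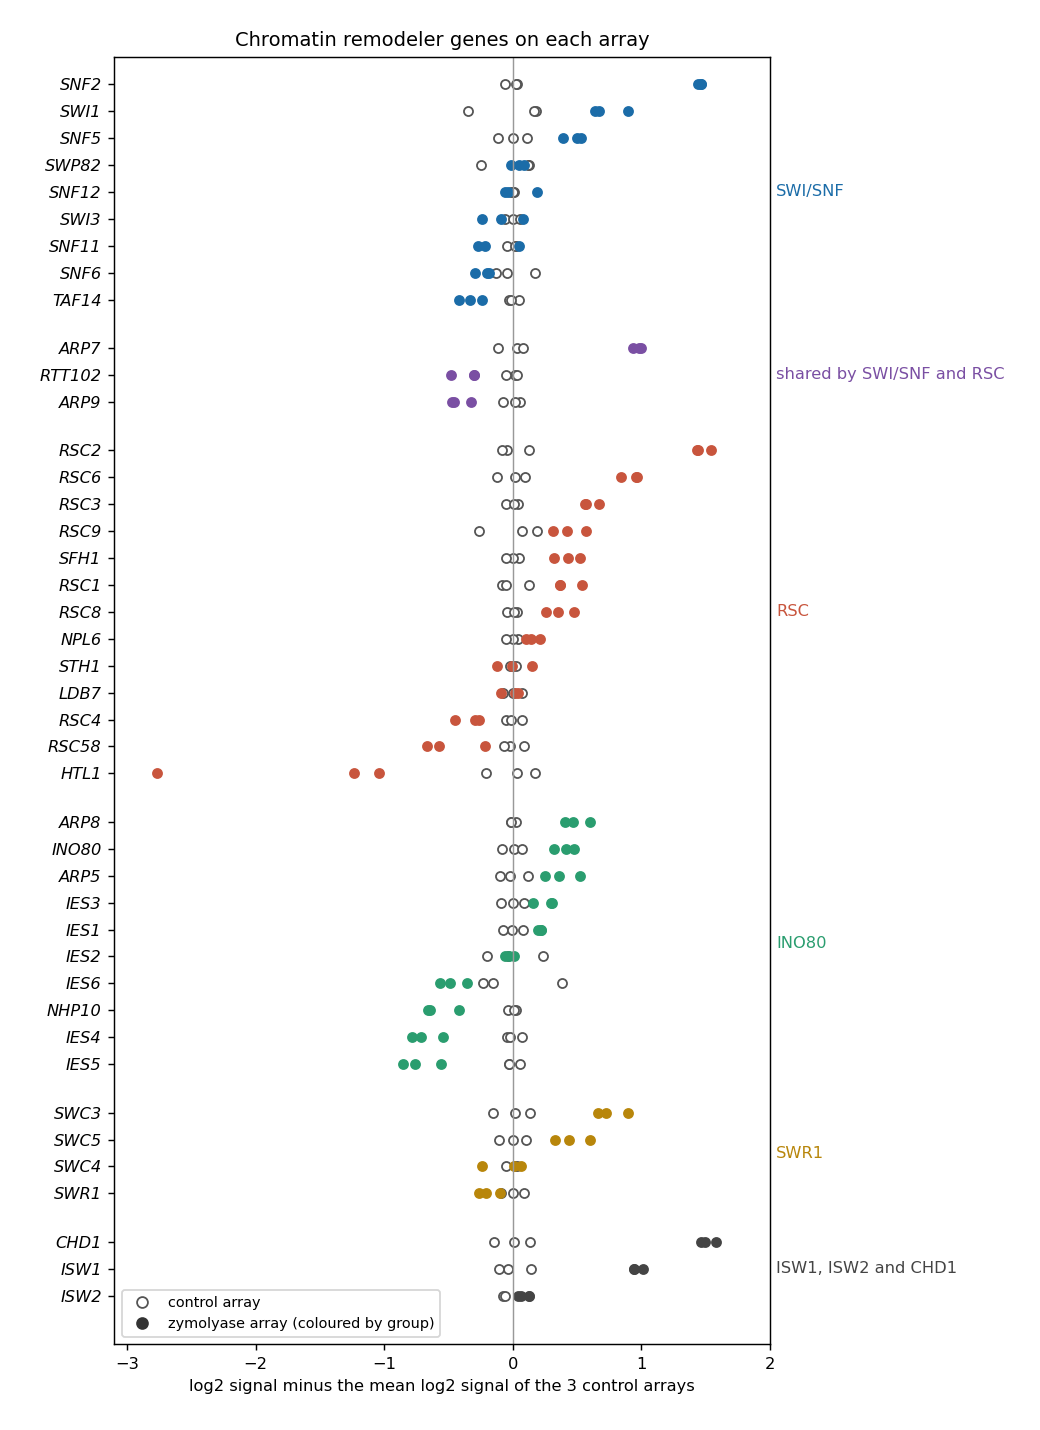
Each row is a remodeler gene. The x axis gives the log2 signal of every array minus the mean log2 signal of the 3 control arrays, with open circles for control arrays and filled circles for zymolyase arrays, grouped by complex. SNF2, RSC2 and CHD1 lie about 1.5 above their controls, ARP7 and ARP9 lie on opposite sides of 0, and HTL1 has a zymolyase array far below the other two.

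Coding length moved with these changes. Across the 42 genes the log2 fold change correlated with log2 coding length, with a Pearson's r of 0.68 and a Spearman's rho of 0.61. Across all 5394 probe sets the values were 0.33 and 0.41. These are correlations across genes of the same 6 arrays, and genes are not independent replicates. The members had a median coding length of 1688 nt, with introns included, against 1245 nt for all probe sets. Of 16 members of 2000 nt or more, 12 rose and 0 fell, where 52.7% of all probe sets of that length rose and 14.8% fell. Of 13 members under 1000 nt, 2 rose and 8 fell, where 16.9% of all such probe sets rose and 61.0% fell. Of the 13 in between, 6 rose and 3 fell, against 36.1% and 31.5%. At an unadjusted p under 0.05, which 73.7% of all probe sets reached, 21 of the 42 members were higher and 11 lower, and of the long members again 12 were higher and 0 lower.

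Labelling proceeds from the 3' end of each message, and the ratio of a 3' to a 5' control probe set is the usual measure of RNA integrity on such arrays. For ACT1, which encodes actin and is itself a subunit of INO80 and SWR1, this ratio was 2.18, 2.06 and 1.86 on the control arrays and 2.44, 2.54 and 2.33 on the zymolyase arrays. All zymolyase arrays were above the control arrays (p = 0.1 by a two-sided exact permutation test, the lowest p possible with 3 against 3 arrays). The ratio was likewise higher on all zymolyase arrays for 6 of 8 control genes, ACT1 included, and overlapped for the other two. The part of RNA integrity in the results below was not tested. The changes are given also from a fit in which the trend of signal with coding length was removed from every array. In that fit 13 members were higher, 11 lower and 18 did not pass, while 68.9% of all probe sets were called, 28.8% higher and 40.1% lower. The median log2 fold change was then 0.08 for the members and -0.11 for all probe sets. Part of the members' relation to length was left, with an r of 0.34 and a rho of 0.21, against 0.00021 and 0.023 over all probe sets. The long members then counted 5 higher and 4 lower, against 32.5% and 38.3% of all probe sets of that length. Those in between counted 5 and 3, against 30.6% and 39.8%, and those under 1000 nt counted 3 and 4, against 24.7% and 41.4%. Called the same way in both fits were 12 genes that rose and 7 that fell. The call was lost for 12, and 5 that had not passed were called, while 0 had opposite calls. Calls kept, lost and gained were not counted over all probe sets, so no such share stands beside these numbers. The called share went from 73.8% to 57.1% of the members, and from 71.5% to 68.9% of all probe sets.

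**Figure D2:**
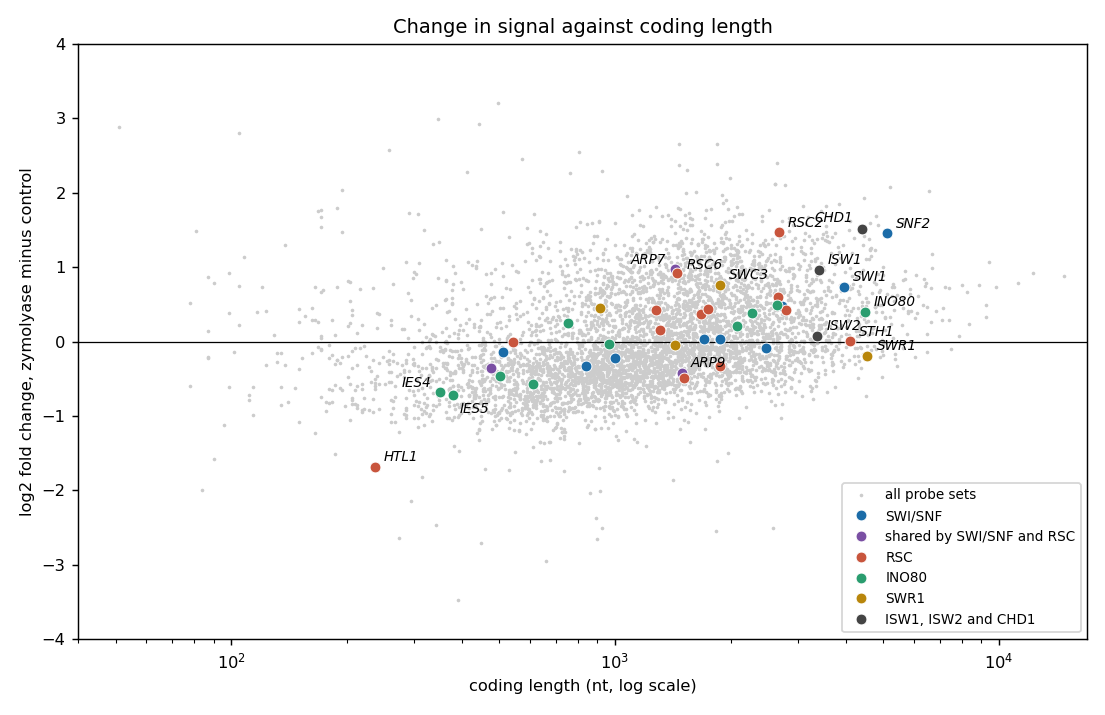
The x axis gives coding length in nt on a log scale and the y axis the log2 fold change, zymolyase minus control. Grey points are all 5394 probe sets and coloured points the 42 remodeler genes by complex. Long members such as SNF2 and CHD1 lie high and short members such as IES4, IES5 and HTL1 lie low, while STH1, ISW2 and SWR1 are long genes near 0.

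The ATPases are the motors of these machines, and their genes are all long. Of 7, 4 rose and 3 did not pass, a share near the 52.7% of all probe sets of 2000 nt or more that rose. Removing the length trend left 3 higher and 3 lower, where 32.5% of all probe sets of that length were higher and 38.3% lower. SNF2, the motor of SWI/SNF, gave signals of 418, 448 and 445 in the control and 1207, 1187 and 1204 with zymolyase. The arrays of each group lay close together and the rise was 2.75-fold (log2 fold change 1.46 ± 0.06 SE, limma adjusted p = 1.1e-09). CHD1, a motor with chromodomains that acts alone, rose from 221, 268 and 247 to 732, 690 and 675, which is 2.85-fold (log2 fold change 1.51 ± 0.09, adjusted p = 1.1e-08).

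ISW1, of the ISWI family, went from 552, 625 and 526 to 1092, 1144 and 1088. Its lowest zymolyase array was well above its highest control array (log2 fold change 0.97 ± 0.07, adjusted p = 1.0e-07). INO80 had control signals of 528, 554 and 496 and zymolyase signals of 730, 700 and 657, without overlap (0.40 ± 0.07, adjusted p = 0.00023). With the length trend removed, SNF2, CHD1 and ISW1 were still higher (by 0.99, 1.08 and 0.60 on the log2 scale), whereas INO80 was at -0.03 (adjusted p = 0.72).

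The other motors had smaller differences. STH1, the essential motor of RSC, gave 772, 786 and 797 in the control and 872, 780 and 723 with zymolyase, so that the control range lay inside the zymolyase range (log2 fold change 0.01 ± 0.07, adjusted p = 0.93). ISW2 gave 749, 652 and 659 against 749, 715 and 707, with overlapping groups (0.08 ± 0.07, adjusted p = 0.34). SWR1 gave 306, 346 and 326 against 305, 281 and 271. Its arrays did not overlap, but by a narrow margin, and the difference did not pass (-0.19 ± 0.09, adjusted p = 0.073). With the length trend removed, all 3 of these long genes were called lower, at -0.40 for STH1, -0.29 for ISW2 and -0.63 for SWR1 (adjusted p = 0.00025, 0.0019 and 4.4e-05).

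Among the 9 measured SWI/SNF subunits not shared with RSC, 3 rose, 2 fell and 4 did not pass. Over all probe sets 32.6% were higher and 38.9% lower. The median log2 fold change was 0.03, and -0.14 with the length trend removed, when 1 was higher and 1 lower. In that fit 28.8% of all probe sets were higher and 40.1% lower. Besides SNF2, SWI1 rose, a large subunit with a DNA-binding domain. Its signals were 166, 163 and 115 in the control and 232, 271 and 228 with zymolyase (log2 fold change 0.74 ± 0.15, adjusted p = 0.00059). SNF5, a core subunit that contacts the nucleosome, went from 239, 280 and 259 to 375, 340 and 366 (0.48 ± 0.09, adjusted p = 0.00043). Both groups of arrays were separate for these genes, as for 73.3% of all probe sets, and both genes are long. Neither passed with the length trend removed, at 0.33 for SWI1 and 0.16 for SNF5 (adjusted p = 0.061 and 0.13).

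TAF14, a small subunit shared with INO80 and with general transcription factors, fell by 0.33 on the log2 scale, and SNF6 by 0.23. SNF6 was the weakest of these calls (adjusted p = 0.020). It was lost without control replicate 2 (log2 fold change -0.14, adjusted p = 0.11), without zymolyase replicate 3 (adjusted p = 0.060) and when the spread was not modelled on signal level (0.061). Neither gene passed with the length trend removed, at -0.14 for TAF14 and -0.14 for SNF6. Not past the threshold were SWI3 and SNF12, core scaffold subunits, SWP82, and SNF11, which binds Snf2, with log2 fold changes of -0.08, 0.03, 0.04 and -0.14. SNF11 was called lower without zymolyase replicate 2 (-0.24, adjusted p = 0.012), and SWI3, a long gene, was called lower with the length trend removed (-0.38, adjusted p = 0.0050).

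Of the 3 subunits that SWI/SNF and RSC share, 1 rose and 2 fell, where 32.6% of all probe sets rose and 38.9% fell. Their median log2 fold change was -0.36, and -0.03 with the length trend removed, when 1 was higher and 1 lower. The shares of all probe sets in that fit were 28.8% higher and 40.1% lower. ARP7 and ARP9 are actin-related proteins that form a dimer on the motors of both complexes. ARP7 rose from 318, 352 and 362 to 687, 657 and 677, almost without spread among the treated arrays (log2 fold change 0.97 ± 0.08, adjusted p = 1.4e-07). ARP9 fell from 1078, 1049 and 984 to 755, 745 and 829 (-0.42 ± 0.07, adjusted p = 8.6e-05). Both genes are of similar length, 1434 and 1490 nt, and with the length trend removed the values were 0.85 and -0.56, both called. RTT102, a small protein that binds this dimer, gave 1029, 980 and 1036 in the control and 826, 726 and 825 with zymolyase (-0.36 ± 0.07, adjusted p = 0.00035). Its arrays were separate, and with the length trend removed it was at -0.03 (adjusted p = 0.66).

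Among the 13 measured RSC subunits not shared with SWI/SNF, 7 (53.8%) rose, 3 (23.1%) fell and 3 did not pass. The shares of all probe sets were 32.6% and 38.9%. The median log2 fold change was 0.36. It was 0.17 with the length trend removed, when 6 subunits were higher and 4 lower, against 28.8% and 40.1% of all probe sets. RSC2, which carries bromodomains and defines a form of the complex distinct from that with RSC1, rose most. Its signals were 176, 156 and 152 in the control and 470, 437 and 435 with zymolyase, a 2.77-fold rise (log2 fold change 1.47 ± 0.09, adjusted p = 2.7e-08). RSC6, a core subunit, rose from 282, 328 and 311 to 550, 600 and 596 (0.92 ± 0.08, adjusted p = 4.9e-07). For both, the treated arrays were far above the controls, and both were called with the length trend removed, at 1.16 and 0.79.

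Smaller rises were those of RSC3, a zinc cluster protein that binds DNA (log2 fold change 0.60), the bromodomain gene RSC1 (0.42), RSC9 (0.44), and the core subunits SFH1 (0.43) and RSC8 (0.36). The largest adjusted p among these genes was 0.0025, for RSC9. Of these, RSC1 and RSC9 lost their calls with the length trend removed, at 0.10 and 0.22 (adjusted p = 0.32 and 0.075).

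The falls among these RSC genes were those of HTL1, RSC58 and RSC4. HTL1 encodes a very small RSC subunit, and its mutants were named for lethality at high temperature. Its signals were 75.4, 88.9 and 98.3 in the control and 12.8, 37.1 and 42.2 with zymolyase. The groups were separate, but zymolyase replicate 1 was below background (log2 fold change -1.68 ± 0.39, adjusted p = 0.0016). Without that array the value was -1.14, and with 50 added to every signal it was -0.79. It was also called with the length trend removed (-1.40, adjusted p = 0.0047). RSC58, essential for growth, fell by 0.49 on the log2 scale and RSC4, whose bromodomains bind acetylated histone tails, by 0.33 (adjusted p = 0.0011 and 0.0042). Both falls were larger with the length trend removed, at -0.64 for RSC58 and -0.57 for RSC4. Beside STH1, NPL6 (also RSC7) and LDB7 (also RSC14) did not pass, at 0.15 and -0.01. The short gene LDB7 was called higher with the length trend removed (0.30, adjusted p = 0.0013).

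The INO80 group here holds 10 genes, without TAF14 and without the further subunits in a list below. Within these 10, 5 rose, 4 fell and 1 did not pass, against 32.6% higher and 38.9% lower over all probe sets. The median log2 fold change was 0.09, and -0.04 with the length trend removed. The rises were mostly of long genes and the falls of short ones. IES5, a small protein of the Nhp10 module, gave 650, 648 and 688 in the control and 391, 366 and 450 with zymolyase (log2 fold change -0.72 ± 0.08, adjusted p = 5.5e-06). IES4, a small subunit known as a target of the checkpoint kinases, fell from 480, 488 and 521 to 303, 288 and 340 (-0.68 ± 0.09, adjusted p = 1.1e-05). NHP10, an HMG-box protein that binds DNA, fell from 953, 912 and 941 to 700, 592 and 598 (-0.57 ± 0.07, adjusted p = 1.4e-05). No array of either group overlapped in these 3 genes, which are named for having the largest called changes. Of all probe sets under 1000 nt, 79.2% did not overlap. With the length trend removed all 3 were still called lower, but at -0.41, -0.36 and -0.27.

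IES6, a partner of Arp5, was also lower (-0.47, adjusted p = 0.0058). Its highest control array, replicate 2, stood at 906 beside 593 and 624, and without it the value was -0.28. Among the rises, ARP8 (0.49) and ARP5 (0.38) encode actin-related proteins, of which Arp8 binds linker DNA. IES3, a short gene, rose by 0.25 (adjusted p = 0.012), and IES1 by 0.21 (adjusted p = 0.025). The call of IES1 was lost with any of 4 arrays left out singly, namely control replicates 2 and 3 and zymolyase replicates 2 and 3 (adjusted p between 0.057 and 0.091), and with median centring (0.070). IES2 did not pass (-0.03). With the length trend removed, IES3 was the INO80 gene still called higher (0.49, adjusted p = 9.1e-05), and 3 of 10 were lower. Over all probe sets 28.8% were higher and 40.1% lower in that fit. ARP5, ARP8, IES1 and IES6 lost their calls, at 0.10, 0.18, -0.05 and -0.15.

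The SWR1 group here holds 4 genes. Further SWR1 subunits, some shared with INO80, stand in a list below, in which 1 gene rose and 4 fell. Within the group of 4, 2 rose, 0 fell and 2 did not pass, where 32.6% of all probe sets rose and 38.9% fell. The median log2 fold change was 0.20, and 0.17 with the length trend removed, when 2 were higher and 1 lower. In that fit 28.8% of all probe sets were higher and 40.1% lower. SWC3 rose from 128, 139 and 114 to 236, 210 and 202 (log2 fold change 0.76 ± 0.12, adjusted p = 0.00010). SWC5, which binds histones, rose from 141, 131 and 122 to 199, 177 and 164 (0.46 ± 0.12, adjusted p = 0.0054). The groups were separate for both, as for 73.3% of all probe sets, and both were called with the length trend removed, at 0.52 and 0.60. SWC4, shared with a histone acetyltransferase complex, did not pass (-0.05), nor did SWR1, given above.

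Several remodeler subunits come in related pairs, and 9 such pairs were compared by the difference of their log2 fold changes. In 6 of the 9 the per-array log2 ratio of both genes did not overlap between the groups. Of single probe sets, 73.3% did not overlap. Ratios of other gene pairs were not computed, so no share over all pairs stands beside these 6. Each of these 6 had an exact permutation p of 0.1 (two-sided, over arrays), below which the design cannot go, and 0.15 after Benjamini-Hochberg adjustment over the 9 pairs, so that none could pass a threshold of 0.05. The motor genes SNF2 and STH1, homologues in SWI/SNF and RSC, differed by 1.45 ± 0.08 SE. ARP7 and ARP9 differed by 1.39 ± 0.10. RSC1 and RSC2, the alternative bromodomain subunits, differed by -1.05 ± 0.11, as RSC2 rose further. ISW1 exceeded ISW2 by 0.89 ± 0.12. SNF12 was below its RSC counterpart RSC6 by -0.89 ± 0.09, and SWI3 was below RSC8 by -0.45 ± 0.09.

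The remaining pairs overlapped. SNF5 and SFH1 differed by 0.05 ± 0.10, SWP82 and NPL6 by -0.11 ± 0.14, and ARP5 and ARP8 by -0.11 ± 0.14 (exact permutation p = 0.7, 0.5 and 0.5). After removal of the length trend, the differences were 1.39 for SNF2 and STH1, 1.41 for ARP7 and ARP9, -1.06 for RSC1 and RSC2, 0.89 for ISW1 and ISW2, -0.97 for SNF12 and RSC6, and -0.55 for SWI3 and RSC8. ARP5 and ARP8 were then at -0.08. Pairs of unequal length that overlapped moved further. For SNF5, at 2718 nt, and SFH1, at 1281 nt, the difference was -0.21 with the trend removed. For SWP82, at 1872 nt, and NPL6, at 1308 nt, it was -0.28.

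**Figure D3:**
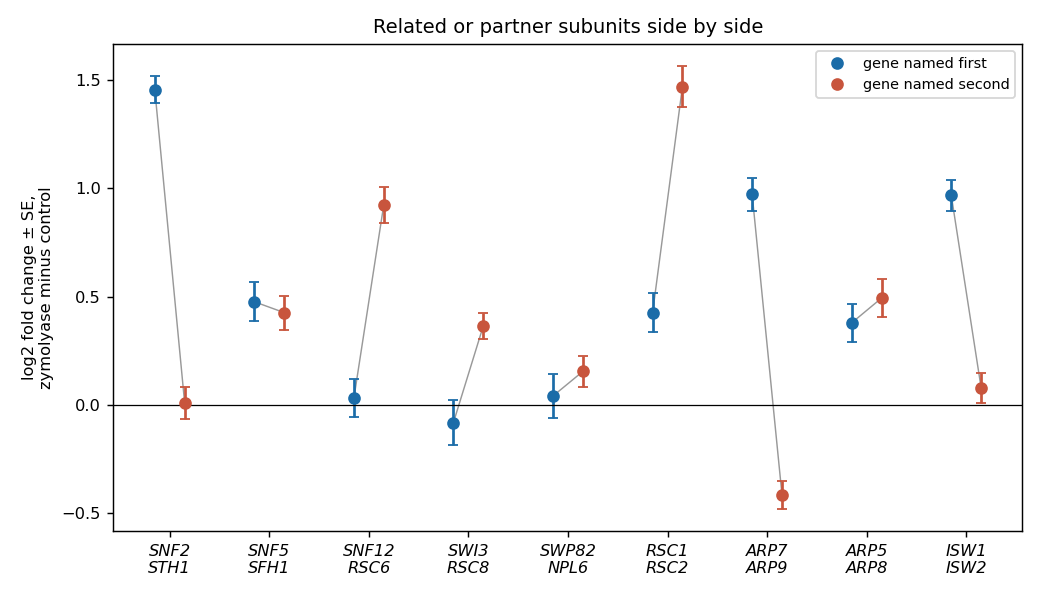
Each pair of points gives the log2 fold change ± SE (limma, 3 arrays a group), zymolyase minus control, of related or partner subunits, with the gene named first in blue and the gene named second in red. SNF2 and STH1, ARP7 and ARP9, RSC1 and RSC2, and ISW1 and ISW2 lie apart, while SNF5 and SFH1 and ARP5 and ARP8 lie close together.

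**Figure D4:**
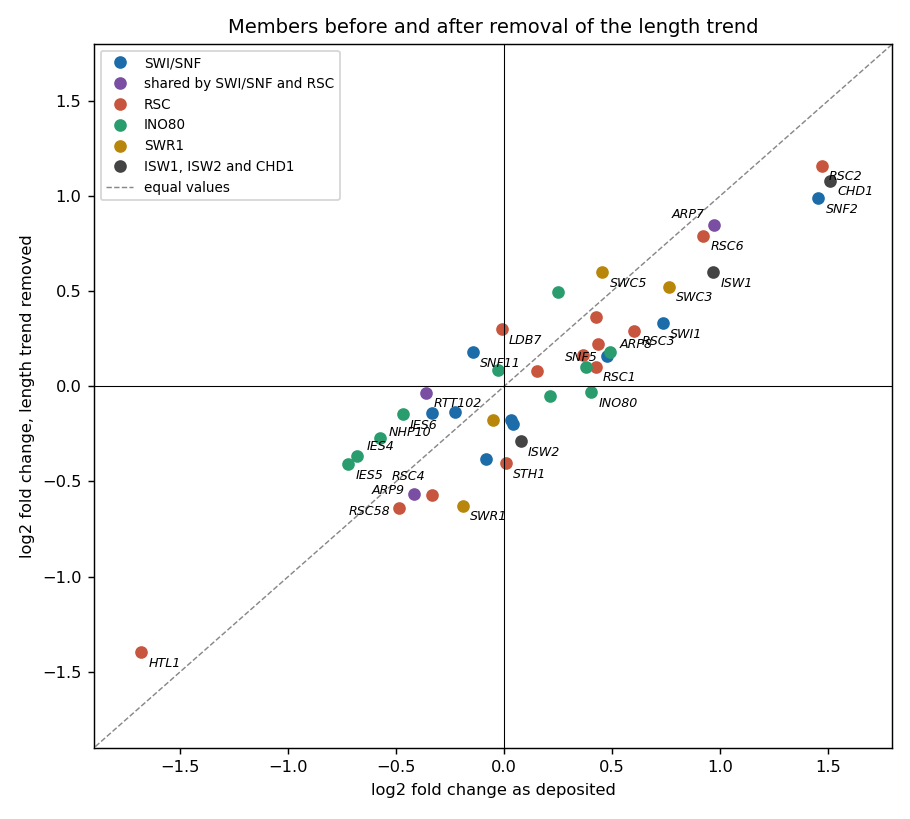
The x axis gives the log2 fold change of each remodeler gene as fitted on the deposited signals and the y axis that after the trend with coding length was removed. Points are coloured by complex and the dashed line marks equal values. RSC2, CHD1, SNF2, ARP7 and RSC6 stay high and HTL1 low, INO80 lies near 0, and STH1, ISW2 and SWR1 lie below 0 on the y axis.

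Other genes of the same machinery were read from lists, and their counts stand beside 32.6% higher and 38.9% lower over all probe sets. Of 10 further genes listed with INO80 and SWR1 and above background, 1 rose, 4 fell and 5 did not pass. The list holds subunits and also HTZ1, the gene of the histone variant, which was among the 4 that fell. HTZ1 had a log2 fold change of -0.30 (limma adjusted p = 0.00016), and 0.01 with the length trend removed (adjusted p = 0.84). VPS71, a SWR1 subunit, fell from 476 ± 16.0 (SD, n = 3) to 282 ± 28.7, and YAF9, a reader of histone acetylation, from 291 ± 30.6 to 195 ± 6.73. BDF1, a bromodomain protein that associates with SWR1, rose from 1472 ± 83.6 to 2471 ± 97.9. VPS71, YAF9 and BDF1 were also called with the length trend removed. SWC7, an eleventh gene of this list, was below background on all arrays and was not tested.

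Of 6 partners of ISW1 and ISW2, 2 rose, 2 fell and 2 did not pass, which is 33.3% in each direction and near 32.6% and 38.9% of all probe sets. IOC2, a partner of ISW1, rose from 232 ± 3.57 to 575 ± 85.7 (log2 fold change 1.30 ± 0.10, adjusted p = 2.0e-07), and was at 1.01 with the length trend removed. IOC4, another partner of ISW1, and DPB4, of the ISW2 complex and DNA polymerase epsilon, were both at -0.39 (adjusted p = 0.0013 and 0.0014). DPB4 lost its call with the trend removed (-0.09, adjusted p = 0.40).

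Of 8 other ATPases of the Snf2 family, 5 rose, 1 fell and 2 did not pass, against 32.6% and 38.9% of all probe sets. All are of 2000 nt or more, a length at which 52.7% of all probe sets rose and 14.8% fell. The counts were 4 higher and 2 lower with the length trend removed. In that fit 32.5% of all probe sets of that length were higher and 38.3% lower. RAD16, of nucleotide excision repair, rose from 133 ± 12.0 to 277 ± 19.0 and IRC5 from 113 ± 19.8 to 223 ± 10.4. RAD54, of recombinational repair, had a log2 fold change of 0.78 ± 0.18 (adjusted p = 0.0020), and 0.46 with the trend removed (adjusted p = 0.043). Of 16 histone chaperone genes, 5 (31.2%) rose, 7 (43.8%) fell and 4 did not pass, near the shares of all probe sets. CAC2, of the assembly factor CAF-1, rose from 196 ± 25.4 to 345 ± 16.5. CHZ1, a chaperone for Htz1, fell from 2110 ± 124 to 1204 ± 58.3, and HIR2, of the HIR histone repressor complex, rose from 271 ± 9.79 to 469 ± 16.3. Median log2 fold changes were -0.17 for the further genes listed with INO80 and SWR1, and 0.18 for the partners. They were 0.44 for the other ATPases and -0.10 for the chaperones, beside -0.08 over all probe sets. These medians with the length trend removed were -0.20, -0.07, 0.0061 and -0.06, beside -0.11. For all probe sets of 2000 nt or more, the length of the other ATPases, the median was 0.28, and -0.07 with the trend removed.

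Of 9 genes long used as promoters acted on by SWI/SNF or INO80, 5 rose, 2 fell and 2 did not pass, against 32.6% and 38.9% of all probe sets. The median log2 fold change was 0.59, beside -0.08 over all probe sets, and 0.34 with 50 added to every signal. It was 0.41 with the length trend removed, when 4 genes were higher and 4 lower, against 28.8% and 40.1% of all probe sets. PHO8, a vacuolar phosphatase gene, rose from 726 ± 27.0 to 1368 ± 49.8 (log2 fold change 0.91 ± 0.06, adjusted p = 3.2e-08). GAL1, of galactose use, gave 41.2, 19.8 and 43.7 in the control, 1 of them below background, and 91.1, 90.2 and 111 with zymolyase (1.56 ± 0.29, adjusted p = 0.00037, and 0.81 with 50 added to every signal). ADH2, an alcohol dehydrogenase gene repressed by glucose, was below background on 2 of 3 control arrays and at least 1.65-fold higher (adjusted p = 0.031). Its call was lost with any of 4 arrays left out singly (adjusted p between 0.064 and 0.090) and under quantile normalization (0.063).

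SUC2 and HO, from whose regulation SWI/SNF took its name, went in opposite directions. SUC2, named here outside the rule after its values were seen, had signals of 331, 349 and 337 in the control and 486, 509 and 540 with zymolyase (log2 fold change 0.59 ± 0.08, adjusted p = 1.4e-05). HO, which encodes the mating type switching endonuclease, gave 1268, 1233 and 1141 against 966, 1149 and 984, with overlapping groups (-0.24 ± 0.07, adjusted p = 0.012). The call of HO was lost without control replicate 1 (adjusted p = 0.051) and without zymolyase replicate 1 (0.054).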

How the data were processed

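The deposited values are linear intensities, 1 for each probe set and array. According to the submitters' processing notes the tool was MAS5, with no version. About 500 ng of RNA per sample was labelled from the 3' end, per the labels' protocols. The trimmed mean (2% off each end) lay between 500.41 and 500.43 for all arrays, and no further scaling was applied. No arrays held identical values.

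Of 10928 probe sets, 5498 carried 1 S. cerevisiae gene according to the platform's annotation, with symbols and lengths from RefSeq (assembly R64) matched by gene ID. The filter required a mean signal above the 90th percentile of 1747 second-species probe sets (10.1), which left 5394. The test was limma 3.58.1 in R 4.3.3 on log2 signals, zymolyase minus control, using lmFit and eBayes with the prior spread fitted to signal level. P-values were adjusted by Benjamini-Hochberg, with a threshold of 0.05, and the procedure was tested on simulated data. A gene below background on 2 or more arrays of a group has a lower bound as its fold, with dim arrays set to the background percentile. The length trend was a local regression per array (span 0.5, degree 1) on log2 coding length, which is a multiple of 3 for 96.8% of probe sets.

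Values on every array are given for the ATPases and, in each complex, for the 3 called members of largest absolute log2 fold change. From each other list the 3 largest called changes are named. Members and lists were chosen with earlier results of these data known. Depth has no meaning for arrays, whose number limits the precision. Same-numbered samples did not deviate together (correlations of 0.05, 0.07 and 0.02), so numbers were not taken as pairs. Sequences and promoter motifs were not analysed here.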

Additional observations from a re-analysis of the deposited data

How the results depend on the processing

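Removing the length trend had the largest effect. Over all probe sets 28.8% were then higher and 40.1% lower. The number of members higher fell from 20 to 13, and was 13 also when 50 was added to every signal in the same fit, a combination chosen after seeing the data. With the trend removed, 1 SWI/SNF gene was higher and 1 lower, 1 shared subunit lower, 1 INO80 gene higher, and 1 SWR1 gene and 1 of ISW1, ISW2 and CHD1 lower. With 50 added too, these numbers were again 1, except that the number of SWI/SNF genes lower was 2, TAF14 and SWI3. Among the members and the genes of the other lists that passed the threshold in the fit as reported or with the trend removed, signs turned for STH1 (-0.40, and -0.36 with 50 added), LDB7 (0.30 and 0.27), INO80 (-0.031 and -0.014), IES1 (-0.050 and -0.038), ISW2 (-0.29 and -0.25), HTZ1 (0.012 and 0.0032), ITC1 (-0.22 and -0.19), MOT1 (-0.27 and -0.23) and PHO84 (-0.20 and -0.17). Of the members past the threshold in neither fit, SNF11, SNF12, SWP82 and IES2 also turned. The SNF5 and SFH1 difference moved to -0.21, the SWP82 and NPL6 difference to -0.28, and the RSC1 and RSC2 difference was -0.86 with 50 added to every signal. The cause was not tested.

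Without an intensity trend 1 SWI/SNF gene was lower, and with median centring 1 SWR1 gene. With an array left out the number of SWI/SNF genes lower was between 1 and 3. The replicate number as a block gave 20 members higher and 11 lower and changed no member's call. Offset, quantile normalization and both filters also changed no member's call. As each member has 1 probe set, averaging probe sets could not be run as a separate alternative. Dim signals limit HTL1, ADH2 and GAL1.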
